A study of Mus musculus with 24 samples.

Results

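The genes described here encode the cap-binding complex eIF4F, its helicase eIF4A and the proteins that regulate that helicase: Eif4e, Eif4g1, Eif4g2, Eif4g3, Eif4a1, Eif4a2, Eif4a3, Eif4b, Eif4h and Pdcd4. They were chosen by name. Of these 10 genes, 8 had an entry of their own in the deposited table of 19895 entries, and all 8 were among the 11438 genes tested. Eif4a2 and Pdcd4 were listed only together with overlapping or adjoining neighbours, as Eif4a2+Rfc4 and Bbip1+Pdcd4+Shoc2, and the values of these joint entries are given as mixed signals.

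The measurements come from mouse pancreatic organoids. Normal (N) organoids were grown from ductal isolates of wildtype C57Bl/6J mice, and KP organoids from tumours of mice in which Cre driven by the Pdx1 promoter, active in pancreatic progenitors, switches on tumour alleles that include p53 R172H. Both were treated with vehicle (DMSO) or with 10 nM CR-31, a rocaglate, for 1 h, in medium without EGF and N-acetylcysteine. From each of the 12 lysates, mRNA carrying 3 or more ribosomes (polysome-associated mRNA) and unfractionated total mRNA were sequenced, which gave 24 libraries in 8 groups of 3. The labels do not say whether replicates of a group came from different animals, so p-values measure the spread between these samples, which may be technical.

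Cap-dependent translation begins when eIF4E binds the cap of an mRNA and eIF4G, a scaffold, joins it to eIF4A and to poly(A)-binding protein. eIF4A unwinds structure in the leader so that the small ribosomal subunit can scan. eIF4B and eIF4H stimulate eIF4A, and PDCD4 holds it away from eIF4G and RNA. Rocaglates such as CR-31 clamp eIF4A onto purine-rich RNA. Eif4g2 encodes an eIF4G-like protein without the eIF4E-binding region, and Eif4a3 encodes the eIF4A relative of the exon junction complex.

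The 3 eIF4A paralogues share the DEAD box that names this helicase family, and their coding sequences there are shown because close copies bear on how reads can be assigned. Each stretch starts at the codon of the first aspartate, is read from GENCODE M21 transcripts (GRCm38) on the coding strand, 5′ to 3′, and has in capitals the bases that differ from Eif4a1.
Eif4a1: gatgaagcagatgaaatgttaagccgaggg
Eif4a2: gaCgaagcagatgaaatgttGagccgaggg
Eif4a3: gatgaGgcTgatgaaatgttGaAcAAaggT
The Eif4a1 stretch lies in exon 6 on the minus strand of chromosome 11, from 69668695 to 69668724. The Eif4a2 stretch lies in exon 6 on the plus strand of chromosome 16, from 23110263 to 23110292, and differs at 2 of 30 bases. The Eif4a3 stretch runs over the junction of exons 6 and 7 on the minus strand of chromosome 11, between 119294032 and 119294352, and differs at 7 of 30 bases.

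The study discarded reads that mapped to several places. Of all 100-base windows (the read length) along the Eif4a1 transcript, 60.8% also occurred in a transcript of another gene, chiefly the pseudogene Eif4a-ps4. The share was 6.31% for Eif4a3, 6.24% for Eif4a2 and 1.72% for Eif4e, and 0% for the 6 other genes. How far this lowers the level of Eif4a1 beside other genes was not tested. Eif4a1 lies on chromosome 11 from 69666936 to 69672423 (minus strand) and Eif4a3 on the same chromosome from 119288363 to 119300089 (minus). Eif4e lies on chromosome 3 from 138526179 to 138559696 (plus), Eif4g1 on 16 from 20668313 to 20692884 (plus), Eif4g2 on 7 from 111067750 to 111083030 (minus) and Eif4g3 on 4 from 137993022 to 138208508 (plus). Eif4b lies on chromosome 15 from 102073773 to 102097173 (plus) and Eif4h on 5 from 134619721 to 134639490 (minus). Eif4a2 (chromosome 16, 23107444 to 23114136, plus strand) overlaps Rfc4 on the opposite strand by 194 bases. Pdcd4 (chromosome 19, 53892231 to 53929860, plus strand) ends where Bbip1 begins, and Bbip1 overlaps Shoc2 by 322 bases.

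Counts summed over the table ranged from 47308461 to 267463046 per library, and every member had at least 853 counts in every library, so that counting error was small beside the spread between replicates. Ductal keratins marked both organoid types: the summed RPKM of 10 ductal genes in total mRNA was 5069 to 8299 in N and 3839.9 to 6243 in KP. Summed RPKM was at most 3.93 for 6 acinar, 2.89 for 6 leukocyte, 0.146 for 6 fibroblast, 0.0911 for 6 endocrine and 0.0728 for 4 endothelial genes, with Ins1, Ins2, Gcg, Col1a2, Col3a1 and Dcn at 0 in all total mRNA libraries. No sequencing lane held both organoid types, so lane and organoid type cannot be told apart.

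The N lysates labelled replicate 3 stand apart from the other N lysates, and whether their labels are right was not tested. For each lysate, the log2 ratio of polysome-associated to total mRNA was taken for all tested genes. Among the 4 N lysates of replicates 1 and 2 these profiles correlated with each other at r = 0.55 to 0.74 (across genes, which are not independent), whereas the vehicle and CR-31 lysates labelled replicate 3 correlated at r = -0.48. Each of these lysates correlated at 0.11 to 0.26 with the other N lysates. Among the members, Eif4b showed this most: the library labelled N vehicle replicate 3 had 494 CPM (read counts scaled to library size) in polysome-associated and 1044 in total mRNA, whereas N CR-31 replicate 3 had 1036 and 385. Calls and differences that rest on N libraries and move when this replicate is left out are therefore also given without N replicate 3. Among the KP lysates, CR-31 replicate 1 correlated at only 0.15 to 0.21 with the vehicle lysates, where the median over all KP pairs was 0.46.

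Per transcript length, Eif4a1 was the most abundant member and Eif4g3 the least in all 4 groups of each fraction. In total mRNA of N vehicle organoids, Eif4a1 had 780, 528 and 525 RPKM in replicates 1 to 3 (611 ± 146, SD, n = 3), and in KP vehicle organoids 698, 545 and 670 RPKM (637 ± 81.4, n = 3). Eif4b followed with 213 ± 29.2 RPKM in N and 179 ± 17.1 in KP, then Eif4h with 144 ± 25.7 and 169 ± 9.44, and Eif4g2 with 130.2 ± 44.9 and 117 ± 11.6 RPKM (SD, n = 3 each). The joint entry of Eif4a2 had 98.5 ± 26 RPKM in N and 72.1 ± 19.4 in KP, and Eif4a3 had 63.1 ± 15.4 and 88.2 ± 5.27 RPKM (SD, n = 3 each). These are levels of RPKM, a scale on which 3 replicates of a group often spread by more than the gap to the next gene.

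**Figure D1:**
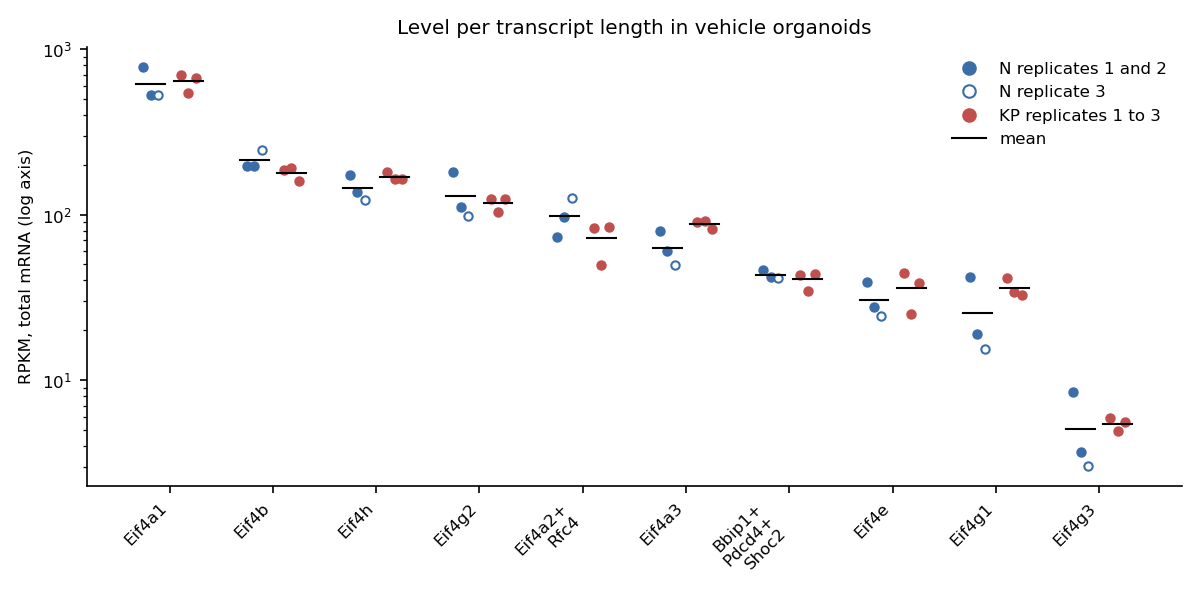
RPKM (log axis) of the 10 entries in total mRNA of vehicle-treated N (blue, replicate 3 as open circles) and KP (red) organoids, with each point a library and the bar the mean of 3. Eif4a1 stands at 525 RPKM or more in every library and Eif4g3 at 8.51 or less.

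The cap-binding and scaffold subunits lay well below the helicase. In total mRNA of vehicle organoids, Eif4e had 30.3 ± 7.67 RPKM in N and 36.1 ± 9.87 in KP, Eif4g1 had 25.5 ± 14.6 and 35.9 ± 4.78, and Eif4g3 had 5.07 ± 2.99 and 5.46 ± 0.49 RPKM (SD, n = 3 each). The joint entry of Pdcd4 had 43.1 ± 2.57 RPKM in N and 40.6 ± 5.17 in KP. The ranges of neighbours in this order overlapped for Eif4e and Eif4g1 and for Eif4a3 and the Eif4a2 entry in both organoid types, for Eif4g2 with both Eif4h and the Eif4a2 entry in N, and for Eif4b and Eif4h and for the Pdcd4 entry and Eif4e in KP. They did not overlap between Eif4a1 and Eif4b or between Eif4g1 and Eif4g3 in either type.

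KP organoids were compared with N organoids in vehicle to ask whether the tumour organoids carry a different supply of initiation factors. Of the 8 members, Eif4h passed the study's threshold (adjusted p under 0.25, edgeR quasi-likelihood test, Benjamini-Hochberg over all 11438 genes) in polysome-associated mRNA and Eif4a3 in total mRNA, both higher in KP. At this threshold, 43.1% of all genes were called in polysome-associated and 28.5% in total mRNA, so that 1 of 8 members is a smaller share than the background in each. In bulk RNA, fewer cells of a type and less RNA per cell cannot be told apart. The median log2 fold change of the members was -0.09 in polysome-associated mRNA (all genes -0.03) and 0.15 in total mRNA (all genes -0.03).

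Eif4h, which encodes a stimulator of eIF4A, had 380.5, 293 and 328 CPM in polysome-associated mRNA of N vehicle replicates 1 to 3 and 496, 396 and 457 CPM in KP. All 3 KP libraries lay above all 3 N libraries. The log2 fold change was 0.48 ± 0.21 (SE, 1.39-fold, edgeR adjusted p = 0.131), and it was 0.47 (adjusted p = 0.116) without N replicate 3. The call was lost without KP vehicle replicate 1 (adjusted p = 0.315) and without N vehicle replicate 2 (adjusted p = 0.359). In total mRNA Eif4h had 412, 352 and 334 CPM in N and 441, 419.7 and 414 in KP, where the groups did not overlap either, although the difference (log2 fold change 0.20 ± 0.17, adjusted p = 0.525) was not called.

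Eif4a3, the exon junction complex helicase, had 112, 92.2 and 79.1 CPM in total mRNA of N vehicle and 131, 139 and 123 CPM in KP vehicle. Again no N library reached the lowest KP library, and the log2 fold change was 0.45 ± 0.22 (SE, 1.37-fold, edgeR adjusted p = 0.232, unadjusted p = 0.0627). This call was lost without N replicate 3 (log2 fold change 0.36, adjusted p = 0.438) and without any 1 of the KP vehicle lysates (adjusted p = 0.298 to 0.421) or N vehicle replicate 2 (0.391). In polysome-associated mRNA, Eif4a3 had 92, 78.7 and 144 CPM in N and 137, 134 and 133 in KP. The N library above the KP libraries was replicate 3, and the log2 fold change was 0.40 ± 0.23 (edgeR adjusted p = 0.252) with it and 0.71 ± 0.17 (adjusted p = 0.0194) without it.

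Eif4a1 and Eif4e, the core helicase and the cap-binding subunit, did not differ between organoid types beyond the spread of replicates. In polysome-associated mRNA Eif4a1 had 1153, 868 and 1246 CPM in N vehicle and 1199, 663 and 1049 in KP vehicle (log2 fold change -0.12 ± 0.26, edgeR adjusted p = 0.783, and -0.0044 ± 0.29 without N replicate 3). In total mRNA it had 1405, 1036 and 1082 CPM in N and 1297, 1055 and 1283 in KP (log2 fold change 0.03 ± 0.20, adjusted p = 0.953, and -0.011 ± 0.22 without N replicate 3). Eif4e differed by 0.21 ± 0.30 on the log2 scale on polysomes and by 0.23 ± 0.23 in total mRNA (adjusted p = 0.66 and 0.591), and by 0.18 ± 0.36 and 0.15 ± 0.27 without N replicate 3. Both genes overlapped between the organoid types in both fractions.

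**Figure D2:**
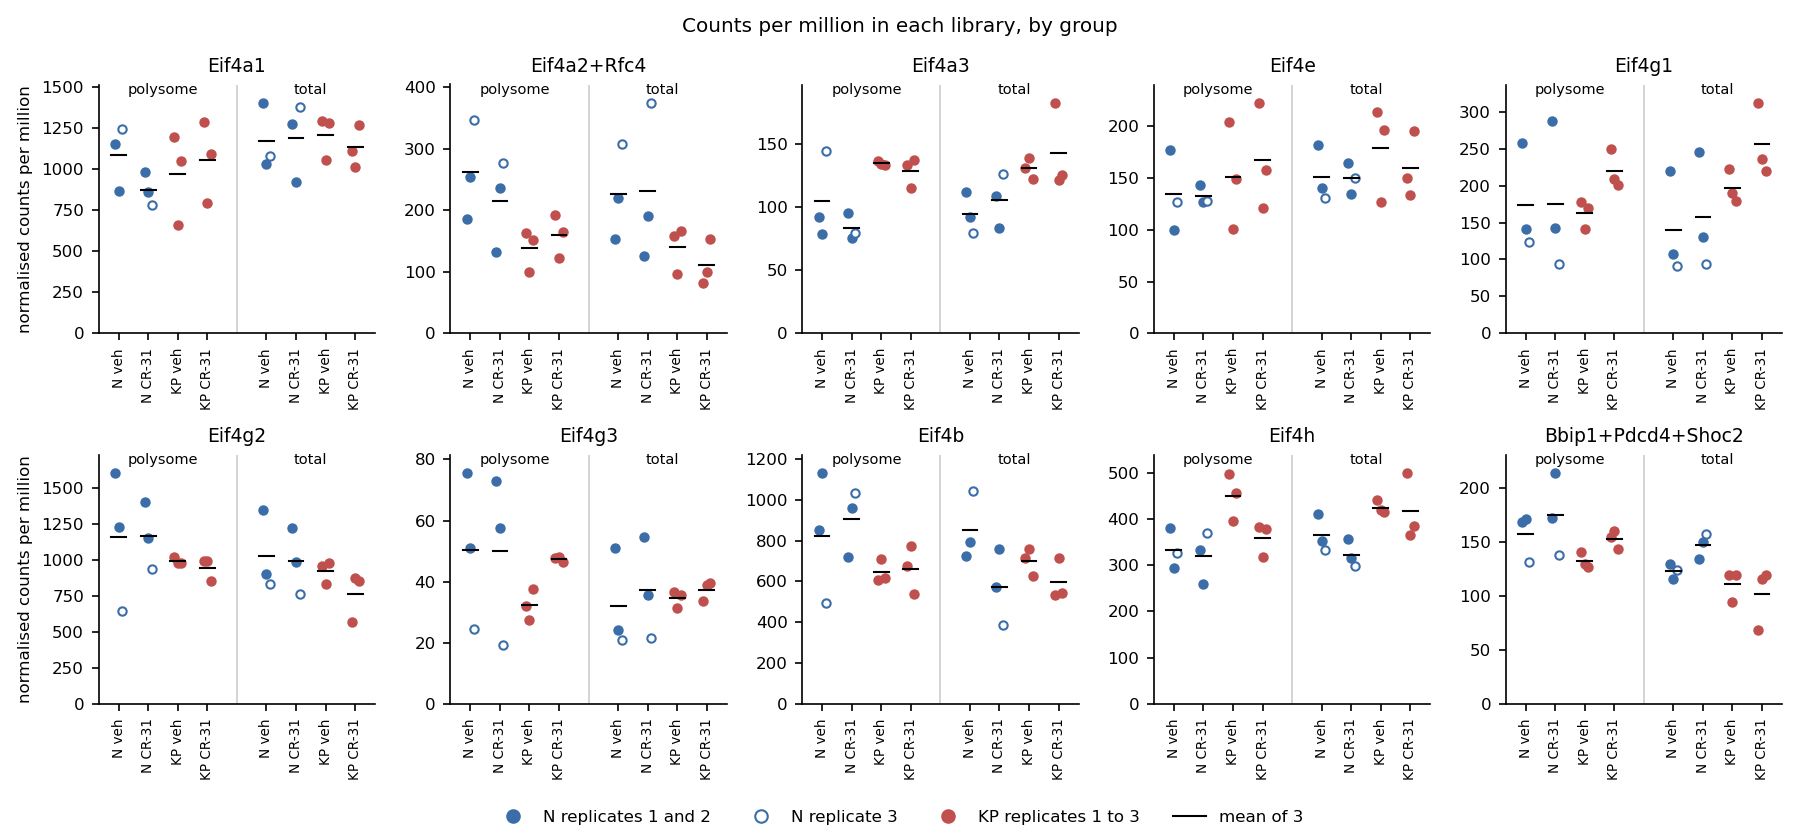
Normalised CPM of the 10 entries in each of the 24 libraries (points; blue N with replicate 3 as open circles, red KP; bars are means of 3), with polysome-associated mRNA on the left and total mRNA on the right of each panel. Eif4h in polysome-associated mRNA of vehicle organoids is at 396 CPM or more in KP and 380.5 or less in N, while Eif4a1 overlaps between KP and N vehicle organoids in both fractions.

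The calls of the scaffold genes Eif4g3 and Eif4g1 depended on the fit and on single N replicates, and neither gene was called in either fraction in the model of the 4 groups over all libraries. With a replicate block added (a term for the replicate number within each organoid type), whose p-values are too small for a comparison between types, Eif4g3 was called lower in KP on polysomes (-0.46 ± 0.15, adjusted p = 0.0293) and Eif4g1 higher in total mRNA (0.59 ± 0.14, adjusted p = 0.00808). Eif4g3 had 75.4, 50.9 and 24.6 CPM in polysome-associated mRNA of N vehicle and 32, 27.4 and 37.5 CPM in KP vehicle, so that N replicates 1 and 2 lay above and N replicate 3 below all KP libraries. The log2 fold change was -0.59 ± 0.44 (edgeR adjusted p = 0.375) over all libraries and -0.91 ± 0.20 (adjusted p = 0.0146) without N replicate 3. In total mRNA Eif4g3 had 51, 24.3 and 20.8 CPM in N and 36.7, 31.5 and 35.6 in KP, with a log2 fold change of 0.09 ± 0.36 (adjusted p = 0.903). Eif4g1 had 219, 107 and 91.5 CPM in total mRNA of N and 222, 189 and 179.5 in KP (log2 fold change 0.48 ± 0.37, adjusted p = 0.467), and in polysome-associated mRNA 257, 141 and 124 CPM in N and 178, 141 and 169 in KP (-0.05 ± 0.37, adjusted p = 0.946). Leaving out N replicate 3, these differences of Eif4g1 were 0.27 ± 0.35 in total and -0.23 ± 0.32 in polysome-associated mRNA, and that of Eif4g3 in total mRNA was -0.12 ± 0.31. N replicate 1 was the highest N library for Eif4g1, Eif4g2 and Eif4g3 in both fractions. Leaving out N replicate 1 instead, both genes were called higher in KP total mRNA, Eif4g1 at 0.98 (adjusted p = 0.0281) and Eif4g3 at 0.61 (adjusted p = 0.109), where 37.4% of all genes were called. On polysomes they were then at 0.30 (adjusted p = 0.393) and -0.22 (adjusted p = 0.746). With sequencing lane as a term Eif4g1 was also called higher in total mRNA (0.64, adjusted p = 0.157; 31.2% of all genes).

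In vehicle, Eif4g2 and Eif4b were called lower in KP polysomes only when N replicate 3 was left out. Eif4g2 had 1601, 1228 and 647 CPM in polysome-associated mRNA of N vehicle and 1020.1, 977 and 982 in KP (log2 fold change -0.17 ± 0.28, edgeR adjusted p = 0.708, and -0.45 ± 0.17, adjusted p = 0.0789, without N replicate 3). Eif4b, the other stimulator of eIF4A, had 852, 1129 and 494 CPM in N and 605, 709 and 618 in KP (-0.31 ± 0.28, adjusted p = 0.471, and -0.57 ± 0.21, adjusted p = 0.0819). In both genes, N replicates 1 and 2 were above all KP libraries and N replicate 3 was below them. Without N replicate 3, 5 of 8 members were called in polysome-associated mRNA, with Eif4a3 and Eif4h higher and Eif4g2, Eif4g3 and Eif4b lower in KP, where 52.6% of all genes were called, and 0 of 8 in total mRNA, where 19.3% of all genes were called and the smallest unadjusted p of a member was 0.152.

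**Figure D3:**
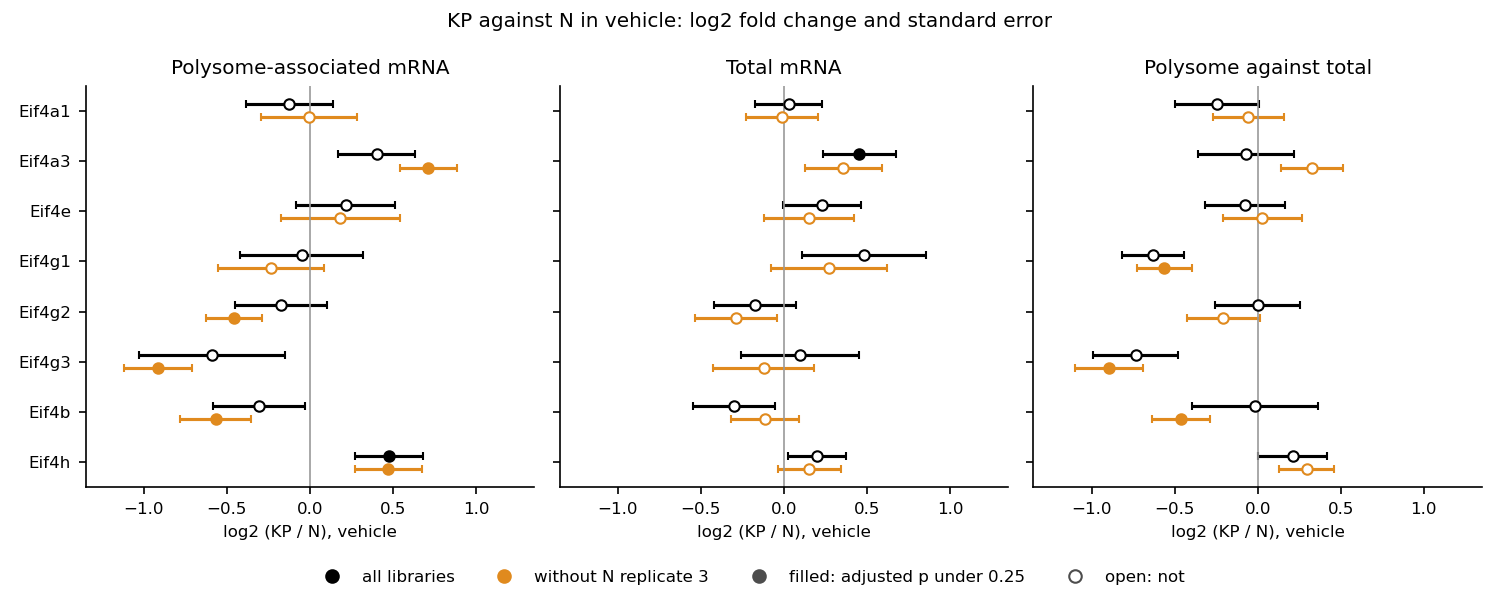
Log2 fold change of KP over N in vehicle (points) with its standard error (bars) for the 8 members, in polysome-associated mRNA, total mRNA and the difference between them, over all libraries (black) and without N replicate 3 (orange); filled points have an adjusted p under 0.25. Eif4h is called in polysome-associated mRNA in both fits, and Eif4g3 moves from -0.59 to -0.91 there when N replicate 3 is left out.

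The replicate number was also fitted as a block within each organoid type. It then called 3 of 8 members in polysome-associated mRNA of vehicle organoids (Eif4a3 and Eif4h higher, Eif4g3 lower in KP; 68.8% of all genes) and 2 of 8 in total mRNA (Eif4a3 and Eif4g1, both higher; 56.4% of all genes). The block takes the spread between replicates of a type out of the error from which a difference between types has to be judged, so these p-values are too small for that comparison.

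With CR-31, Eif4a3 was again higher in KP than in N organoids. Eif4a3 was the 1 member called in polysome-associated mRNA (25% of all genes), with 95.3, 75.6 and 79.7 CPM in N and 134, 116 and 137 in KP, which did not overlap (log2 fold change 0.59 ± 0.23, edgeR adjusted p = 0.148, and 0.56, adjusted p = 0.0754, without N replicate 3). In total mRNA 3 of 8 members were called, all higher in KP, where 39.9% of all genes were called: Eif4h (0.35 ± 0.17, adjusted p = 0.196), Eif4a3 (0.42 ± 0.22, adjusted p = 0.222) and Eif4g1 (0.69 ± 0.37, adjusted p = 0.231). Their unadjusted p-values were 0.0655, 0.082 and 0.0882, so these calls rest on the lenient threshold. Each was lost without KP CR-31 replicate 1 (adjusted p = 0.523, 0.639 and 0.536) and without N CR-31 replicate 2 (0.328, 0.488 and 0.415), and those of Eif4h and Eif4g1 also without N CR-31 replicate 3 (0.371 and 0.508). The call of Eif4a3 on polysomes was lost without KP CR-31 replicate 1 (0.362) or 3 (0.341) and without N CR-31 replicate 2 (0.346). Without N replicate 3, Eif4a3 was called higher and Eif4g2 lower in total mRNA (27.2% of all genes), and Eif4a3 higher with Eif4g2 and Eif4g3 lower in polysome-associated mRNA (34.7% of all genes). With the replicate block, 4 of 8 members were called in polysome-associated mRNA, where 58.2% of all genes were: Eif4a3 (0.58) and Eif4g1 (0.45) higher and Eif4g2 (-0.33) and Eif4b (-0.51) lower in KP. In total mRNA the block kept the 3 calls and also called Eif4g2, lower in KP (-0.38 ± 0.17, adjusted p = 0.0991; 65.1% of all genes).

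The joint entry that holds Eif4a2 was called lower in KP in 2 of 4 comparisons with N. In polysome-associated mRNA it had 186, 254 and 346 CPM in N vehicle and 163, 100.2 and 151 in KP vehicle, with no overlap, and in a fit over 12209 entries that included joint entries the log2 fold change was -0.91 ± 0.33 (edgeR adjusted p = 0.0829), where 43.3% of entries were called. In total mRNA it had 153, 221 and 307 CPM in N and 158, 96.4 and 166 in KP, and the difference was not called (-0.72 ± 0.40, adjusted p = 0.303; 28.2% of entries). In total mRNA with CR-31 it was -1.06 ± 0.40 (adjusted p = 0.107; 39.9% of entries), and in polysome-associated mRNA with CR-31 the groups overlapped and it was not called (-0.47 ± 0.33, adjusted p = 0.438). N replicate 3 was the highest N library in all 4 groups. Without it, the value on polysomes in vehicle was -0.64 ± 0.31 (adjusted p = 0.165, 52.5% of entries), and the call in total mRNA with CR-31 was lost (-0.52 ± 0.34, adjusted p = 0.383), as it was without KP CR-31 replicate 1 (-0.88 ± 0.46, adjusted p = 0.334). The paralogue Eif4a2 and the replication factor gene Rfc4 cannot be told apart in this value.

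The joint entry of Pdcd4, the inhibitor of eIF4A, had 168, 171 and 131 CPM in polysome-associated mRNA of N vehicle and 141, 129 and 127 in KP vehicle (log2 fold change -0.22 ± 0.19, edgeR adjusted p = 0.438). It was called lower in KP in total mRNA with CR-31, with 134, 149.97 and 157 CPM in N and 68.7, 116 and 119 in KP (-0.56 ± 0.21, adjusted p = 0.105). This call was lost without N replicate 3 (-0.50 ± 0.25, adjusted p = 0.261) and without KP CR-31 replicate 1 (-0.34 ± 0.16, adjusted p = 0.269). On polysomes, where it was not called with all libraries, the entry was called lower in KP without N replicate 3, at -0.32 ± 0.15 in vehicle (adjusted p = 0.145, 52.5% of entries) and -0.38 ± 0.15 with CR-31 (adjusted p = 0.138, 34.5% of entries). The KP library at 68.7 CPM was replicate 1. Among KP libraries with CR-31 in total mRNA, it was also the highest for Eif4a3 (182 CPM), Eif4g1 (312 CPM) and Eif4h (499 CPM). It was the lowest for Eif4g2 (572 CPM), the Eif4a2 entry (82.3 CPM), Eif4g3 (33.8 CPM) and Eif4b (533 CPM).

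Ratios of paralogues within a library do not depend on the scaling between libraries. In total mRNA of vehicle organoids the RPKM ratio of Eif4a3 to Eif4a1 was 0.103 in N and 0.139 in KP (geometric means of 3; difference of log2 ratios 0.43, exact two-sided permutation p = 0.1, adjusted p = 0.4 over 40 ratios tested). The ratio of Eif4g2 to Eif4g1 was 5.44 in N and 3.28 in KP (difference -0.73, exact permutation p = 0.1), and that of Eif4g3 to Eif4g1 was 0.198 and 0.152 (difference -0.38, exact permutation p = 0.1). In each of these the groups did not overlap, and 0.1 is the smallest p that 3 against 3 allows. All 3 ratios kept their sign without any 1 lysate. On polysomes of vehicle organoids the groups overlapped for all 3: Eif4g2 to Eif4g1 was 4.58 in N and 4.28 in KP (difference -0.10, exact permutation p = 0.8), Eif4a3 to Eif4a1 was 0.121 and 0.184, and Eif4g3 to Eif4g1 was 0.237 and 0.172 (exact permutation p = 0.2 for each of these). In total mRNA of vehicle organoids the ratio of the Eif4a2 entry to Eif4a1 was 0.16 in N and 0.111 in KP, with overlap (exact permutation p = 0.3). With CR-31, N and KP did not overlap in total mRNA for the 3 ratios first named, or on polysomes for Eif4a3 to Eif4a1 and Eif4g2 to Eif4g1. In KP, Eif4g2 to Eif4g1 was lower with CR-31 than with vehicle, without overlap: 3.01 against 4.28 on polysomes and 2.08 against 3.28 in total mRNA. Each of these had an exact permutation p = 0.1 (adjusted p = 0.4).

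The polysome-associated over total ratio was then compared within lysates, to ask which mRNAs were more or less on polysomes than the average mRNA. Because counts were scaled between libraries, a log2 ratio of 0 stands for the average mRNA. A change in the share of all mRNA on polysomes cannot be seen in it. In N vehicle, Eif4g3 and Eif4g1 were called as higher in polysome-associated than in total mRNA, 2 of 8 members with 14% of all genes called. Eif4g3 had log2 ratios of 0.56, 1.07 and 0.24 in replicates 1 to 3 (fitted 0.62 ± 0.18, edgeR adjusted p = 0.0797), and Eif4g1 had 0.23, 0.40 and 0.44 (0.36 ± 0.13, adjusted p = 0.168). All 6 values were above 0, and both calls were lost without N vehicle replicate 2 (adjusted p = 0.519 for Eif4g3 and 0.517 for Eif4g1). Without N replicate 3, Eif4g2 (0.35, adjusted p = 0.208) and Eif4b (0.38, adjusted p = 0.0953) were called as well, with 33% of all genes called.

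In KP vehicle the direction of Eif4g1 was the opposite. Its log2 ratios were -0.32, -0.42 and -0.08 (fitted -0.27 ± 0.13, edgeR adjusted p = 0.228), and Eif4a1 had -0.11, -0.67 and -0.29 (-0.36 ± 0.18, adjusted p = 0.243), 2 of 8 members with 27.6% of all genes called. Eif4g3 had -0.20, -0.20 and 0.07 there. Both genes were also called without N replicate 3 (47.4% of all genes called), and neither was without any 1 of the KP vehicle lysates (adjusted p = 0.321 to 0.743).

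The difference between organoid types in this ratio was tested directly. For Eif4g1, all 3 KP lysates were below all 3 N lysates, and the difference was -0.63 ± 0.19 (edgeR adjusted p = 0.435, unadjusted p = 0.00444). For Eif4g3 the lysates did not overlap either, with a difference of -0.73 ± 0.26 (adjusted p = 0.435, unadjusted p = 0.0127). DESeq2 called 1 member, Eif4g1, but the share of all genes it called is not given here. In edgeR no member was called, and 0% of all genes were, although 1281 genes had an unadjusted p under 0.05. Without N replicate 3, where 34.8% of all genes were called, Eif4g3 (-0.90 ± 0.21, adjusted p = 0.0884), Eif4g1 (-0.56 ± 0.17, adjusted p = 0.0976) and Eif4b (-0.46 ± 0.17, adjusted p = 0.134) were called lower in KP. Where polysome level was instead regressed on total level, a design closer to that of the study, Eif4g1 and Eif4g3 were called lower in KP with all libraries (11.5% of all genes). With the replicate block added, that regression no longer called Eif4g1 (-0.55 ± 0.66, adjusted p = 0.564), and called Eif4g3 and Eif4b lower and Eif4a3 and Eif4h higher in KP (54.6% of all genes). In CR-31, 0 of 8 members and 0% of all genes were called between the organoid types in this ratio by edgeR, DESeq2 called 0 members, and 0 members and 526 genes had an unadjusted p under 0.05, whereas the regression with the block called Eif4a3 higher (0.83 ± 0.24, adjusted p = 0.0987) and Eif4b lower (-0.39 ± 0.15, adjusted p = 0.164) in KP (32.9% of all genes).

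**Figure D4:**
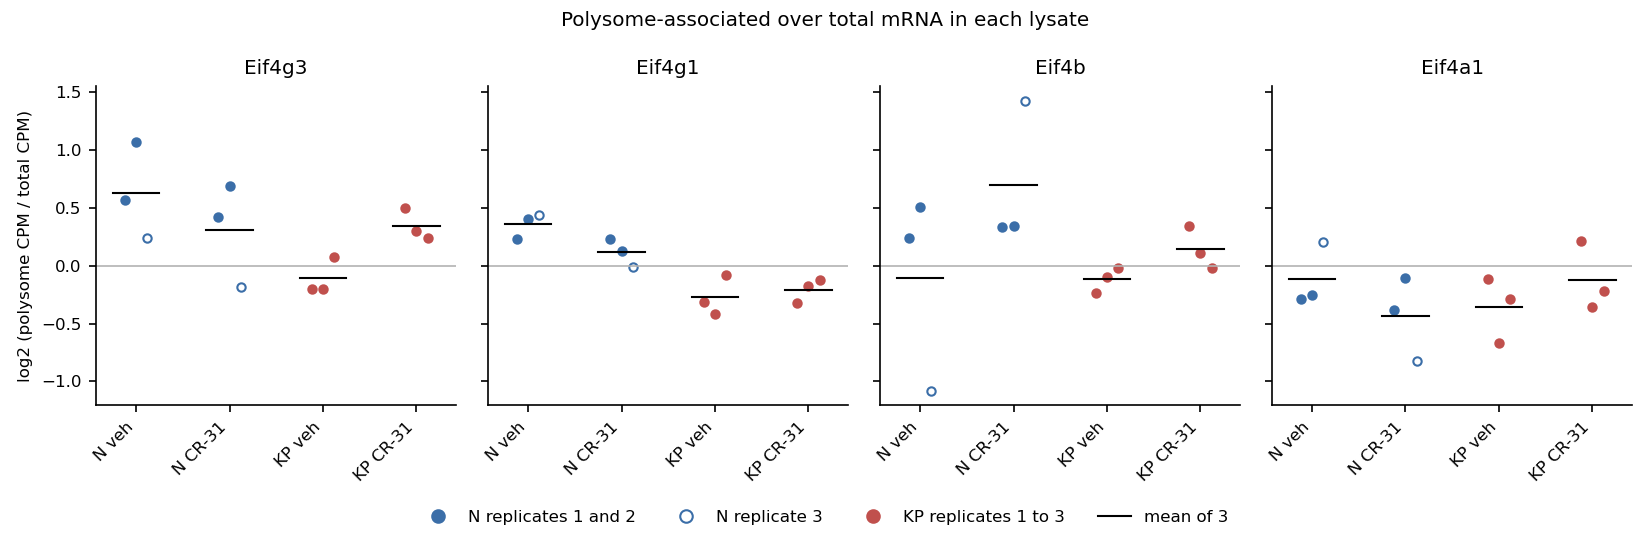
Log2 ratio of polysome-associated to total CPM in each lysate (points; blue N with replicate 3 as open circles, red KP; bars are means of 3) for Eif4g3, Eif4g1, Eif4b and Eif4a1. For Eif4g3 and Eif4g1 the vehicle N lysates all lie above 0 and above the vehicle KP lysates, and the open circles of Eif4b lie at -1.08 in vehicle and 1.43 in CR-31.

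In N treated with CR-31, 2 of 8 members were called between the fractions, with 16.7% of all genes called: Eif4b higher (0.70 ± 0.27, edgeR adjusted p = 0.19) and Eif4a1 lower (-0.43 ± 0.18, adjusted p = 0.217) in polysome-associated mRNA. Without N replicate 3, Eif4b was at 0.35 (adjusted p = 0.198), Eif4a1 was no longer called and Eif4g3 was (0.56, adjusted p = 0.0746), with 15% of all genes called. In KP treated with CR-31, 0 of 8 members were called (19.5% of all genes; the smallest adjusted p of a member was 0.321, and 0 members had an unadjusted p under 0.05). DESeq2 called 1 member there, Eif4g1, lower, but the share of all genes it called is not given here. Without N replicate 3, 4 of 8 were called there: Eif4g2 and Eif4g3 higher and Eif4g1 and Eif4h lower, with 40.2% of all genes called. Both joint entries were called higher in polysome-associated mRNA of KP with CR-31, at 0.62 for that of Pdcd4 (adjusted p = 0.0671) and 0.52 for that of Eif4a2 (adjusted p = 0.148; 20.4% of entries). KP CR-31 replicate 1 was the highest lysate for both, with log2 ratios of 1.17 against 0.46 and 0.27 for the Pdcd4 entry and 1.22 against 0.29 and 0.10 for the Eif4a2 entry. Without it the values were 0.34 ± 0.18 (adjusted p = 0.54) and 0.17 ± 0.17 (adjusted p = 0.787), and neither was called.

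CR-31 was compared with vehicle to ask whether 1 h of the eIF4A inhibitor changed the mRNAs of its own target complex. In the edgeR fit without the replicate block, none of the 8 members was called in N or in KP, in polysome-associated mRNA, total mRNA or the difference between them, and 0% of all genes were called in each of these tests, in which 48 to 639 genes had an unadjusted p under 0.05. At an unadjusted p under 0.05, 1 member was found over these 6 tests, Eif4b in total mRNA of N (log2 fold change -0.57 ± 0.25, adjusted p = 1.00), where the pairs of replicates 1 to 3 differed by -0.34, -0.07 and -1.44. When N replicate 3 was left out, that value was -0.19 ± 0.23 (unadjusted p = 0.419), no member was called for CR-31 in N in any measure, and the smallest unadjusted p was 0.266 among the members counted on their own and 0.246 for the joint entries. DESeq2 called 0 members in each as well. The fit with the replicate block, which pairs vehicle and CR-31 libraries of a type, called Eif4g3 higher and Eif4h lower in KP polysome-associated mRNA (19.3% of all genes). In KP the fitted log2 fold changes ran from -0.39 to 0.49 in polysome-associated and from -0.26 to 0.39 in total mRNA, and in N from -0.32 to 0.15 and from -0.57 to 0.23.

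Eif4a1, the target itself, had 981, 862 and 781 CPM in polysome-associated mRNA of N with CR-31, and 1290.0, 792 and 1094 CPM in KP with CR-31. Against vehicle the log2 fold change was -0.31 ± 0.26 in N and 0.06 ± 0.26 in KP, and -0.11 ± 0.32 in N without N replicate 3. Each CR-31 library of KP was above the vehicle library of its number, by 0.11, 0.26 and 0.06 on the log2 scale, and each of N was below, by -0.23, -0.01 and -0.67. In total mRNA the changes were 0.03 ± 0.20 in N (-0.15 ± 0.24 without N replicate 3) and -0.08 ± 0.20 in KP.

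**Figure D5:**
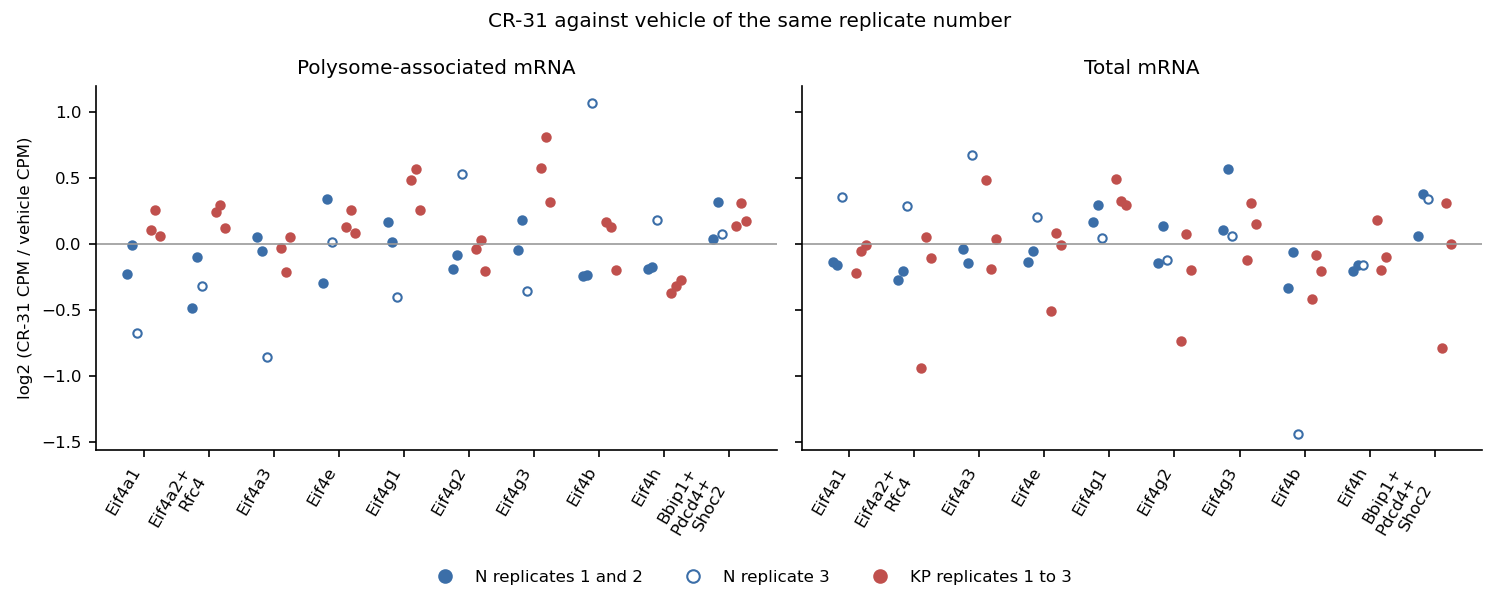
Log2 ratio of CR-31 to vehicle CPM for libraries of the same replicate number (points; blue N with replicate 3 as open circles, red KP) in polysome-associated and total mRNA. In KP polysomes the 3 pairs lie above 0 for Eif4a1, Eif4e, Eif4g1, Eif4g3 and both joint entries, and below 0 for Eif4h. N pairs fall on both sides of 0 for Eif4g1, Eif4g3 and Eif4h. For Eif4g1 and Eif4h only N replicate 3 lies on the other side of 0 from the KP pairs.

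Libraries of the same replicate number deviated together within an organoid type, and a fit that blocked on that number called 2 of 8 members in polysome-associated mRNA of KP organoids with CR-31, where 19.3% of all genes were called. Eif4g3 had 32, 27.4 and 37.5 CPM with vehicle and 47.6, 48 and 46.5 with CR-31. The groups did not overlap, and the log2 fold change was 0.50 ± 0.15 with the block (edgeR adjusted p = 0.192) and 0.49 ± 0.44 without it (unadjusted p = 0.288). Eif4h had 496, 396 and 457 CPM with vehicle and 382, 317 and 378 with CR-31. Its log2 fold change was -0.39 ± 0.15 with the block (adjusted p = 0.215) and -0.39 ± 0.21 without it (unadjusted p = 0.0822).

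The regression on total level with the replicate block called the same 2 genes in the same directions, Eif4g3 at 0.42 ± 0.17 (adjusted p = 0.248) and Eif4h at -0.39 ± 0.15 (adjusted p = 0.243), where 17% of all genes were called. In polysome-associated mRNA of KP, Eif4g1 was higher with CR-31 in 3 of 3 pairs, by 0.48, 0.56 and 0.25 on the log2 scale, but was not called with the block. The 3 pairs there were also all above 0 for Eif4a1, Eif4e, Eif4g3 and both joint entries, and all below 0 for Eif4h. How often all 3 pairs agree among all genes was not tested. In total mRNA the pairs of Eif4g1 were also all above 0, at 0.49, 0.32 and 0.29 in KP and 0.16, 0.29 and 0.04 in N. In N the block called no member in either fraction. The effect of CR-31 in KP was not shown to differ from that in N for any member: edgeR without the block and DESeq2 called 0 of 8 in each measure, with 0% of all genes called by edgeR, and 0 members and 15 to 1236 genes had an unadjusted p under 0.05. With the block 0 of 8 were called as well, and Eif4g3 had the only unadjusted p under 0.05, on polysomes (0.56 ± 0.21, unadjusted p = 0.0257, adjusted p = 0.346) and in the regression on total level (0.65 ± 0.23, unadjusted p = 0.0239, adjusted p = 0.549). Leaving out N CR-31 replicate 2, the difference of Eif4g3 in the polysome-associated over total ratio was called (adjusted p = 0.231; 16.6% of all genes).

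Genes that act on or beside these factors were grouped in 7 lists of 49 genes, of which 44 were tested. In vehicle, 7 were called higher and 7 lower in KP in total mRNA, where 28.5% of all genes were called, and 9 higher and 11 lower in polysome-associated mRNA, where 43.1% were. Both are near the share of all genes, and the counts of single lists below are to be read against the same shares. None was called for CR-31 against vehicle in either organoid type, where 0% of all genes were called. These list counts are from the fits without the replicate block. In the list of eIF4E-binding and eIF4E-like proteins, 2 of 8 tested genes were called lower in total mRNA (28.5% of all genes called; median log2 fold change 0.07, all genes -0.03). Eif4e3, an eIF4E relative, had 2.54 ± 1.34 CPM in N and 0.272 ± 0.115 in KP (SD, n = 3; edgeR log2 fold change -3.24, adjusted p = 0.0122), and Angel1 fell by 0.90 on the log2 scale (adjusted p = 0.0467). On polysomes (43.1% of all genes called) both were again lower, as was Gigyf2 (-1.05, adjusted p = 0.0252), while Eif4ebp1, which encodes the eIF4E inhibitor 4E-BP1, was higher (1.22, adjusted p = 0.106).

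Among mTORC1 and its upstream regulators, 2 of 10 tested genes were higher and 1 lower in KP total mRNA (28.5% of all genes called; median 0.13). Deptor, an inhibitor of mTOR, had 54.8 ± 16.6 CPM in KP and 16.9 ± 4.61 in N (SD, n = 3; edgeR log2 fold change 1.68, adjusted p = 0.00849), and Mtor rose by 0.97 (adjusted p = 0.0316). Of 7 genes for S6 kinases, RSK kinases and the PDCD4 ubiquitin ligase, 2 were higher and 2 lower in total mRNA (28.5% of all genes called; median 0.11), among them the RSK genes Rps6ka3 (1.07, adjusted p = 0.0813) and Rps6ka2 (-0.97, adjusted p = 0.122). The others were Rps6ka1, higher (0.84, adjusted p = 0.066), and the ligase gene Btrc, lower (-0.48, adjusted p = 0.243, and 0.283 without N replicate 3).

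Of 6 genes for other initiation helicases and rocaglate-bound proteins, 2 were called higher and 0 lower in total mRNA (28.5% of all genes called; median 0.11): the prohibitin genes Phb2 (0.54, edgeR adjusted p = 0.111) and Phb (0.50, adjusted p = 0.101). In polysome-associated mRNA the same list had 2 higher, again Phb2 (1.14, adjusted p = 0.00789) and Phb (0.82, adjusted p = 0.0692), and 3 lower, the helicase genes Dhx9 (-1.04, adjusted p = 0.0407), Ddx3x (-0.82, adjusted p = 0.0875) and Dhx36 (-0.62, adjusted p = 0.19), with a median of -0.49, where 43.1% of all genes were called. Gigyf2, Eif4ebp1, Mknk2, Rps6ka1, Btrc and these 3 helicase genes were named after their values were seen. Of 7 poly(A)-binding protein genes and partners, 2 were lower in total mRNA (28.5% of all genes called; median -0.17), Pabpc1 (-0.54, adjusted p = 0.171) and Paip1 (-0.47, adjusted p = 0.191), and both were no longer called without N replicate 3. Of 4 tested exon junction complex partners of eIF4A3, Magohb was higher (0.73, adjusted p = 0.108, and 0.264 without N replicate 3). Of the 2 MNK kinase genes, whose products phosphorylate eIF4E, Mknk2 was called higher on polysomes (0.98, adjusted p = 0.0224, and 0.0317 without N replicate 3), and neither was called in total mRNA.

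Across the 24 libraries, the tested genes whose log2 CPM was most like that of Eif4a1 were Rabl3, Sfpq, Psmc2, Nifk and Ewsr1 (Pearson r = 0.89 to 0.86, chosen as the highest of 11437). For the Eif4a2 entry they were Chrdl1, Casp4, Rfesd, Mocs2 and Cir1 (r = 0.93 to 0.92), and for the Pdcd4 entry Tmem184c, Atxn3, Acbd3, Zfp260 and Tdrd3 (r = 0.95 to 0.92). Among the members, Eif4a1 and Eif4e were most alike (r = 0.78) and Eif4a3 and Eif4b least (r = -0.76). The libraries share lysates and organoid types, so these values only describe them.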

How the data were processed

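Polysome-associated and total mRNA of N and KP organoids was sequenced in paired reads of 100 bases. The authors aligned the reads with HISAT2, dropped multi-mapped reads and deposited, per gene and library, raw counts and RPKM values over coding RefSeq transcripts. The Methods name the human build hg38, whereas the deposited genes are mouse. Gene positions and sequences here are from GENCODE M21 (GRCm38).

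Entries with 1 symbol that occurs once and a count above 0 in all 24 libraries (11438) were tested, and 0 columns of per-sample values were left unused. Counts were scaled by TMM and tested with edgeR 4.0.16 (R 4.3.3), in a model of the 4 groups per fraction, or in a model of both fractions with the lysate as a block for the polysome-associated against total ratio and its changes. SE is the log2 fold change divided by the root of F. P-values were adjusted over all genes by Benjamini-Hochberg and called under 0.25, the threshold of the study. CPM use TMM over 24 libraries. DESeq2 1.42.0, other scalings, filters, a threshold of 0.05, lane and replicate terms, a regression on total mRNA (limma 3.58.1 variance moderation, prior count 2) and leaving out lysates were alternatives. The fit that includes joint entries, also without N replicate 3 or KP CR-31 replicate 1, was added after the data were seen. No share of all genes called is given for the DESeq2 fits. RPKM ratios were tested by exact permutation. The scripts were tested on simulated data.

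The members and all gene lists were chosen with earlier results of these data known. Named are all members, up to 2 genes per list called in KP against N vehicle total mRNA with the largest change, and the 5 genes most like Eif4a1 and the joint entries. Some items are not reported here.

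Same-numbered libraries pair within an organoid type: deviations from the group means correlated between vehicle and CR-31 of the same fraction at 0.55 to 0.89 in N and 0.46 to 0.80 in KP, and at -0.17 to 0.28 between N and KP, so the replicate block was set within a type.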

Additional observations from a re-analysis of the deposited data

Results flagged for a closer look

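For 4 values, all 3 replicate pairs of N moved one way under CR-31 and all 3 pairs of KP the other. They were picked by this pattern from the 10 entries in polysome-associated mRNA, total mRNA and the ratio between them. How many of all genes show the pattern was not tested. In each of the 4 values, the test of the difference itself (edgeR, interaction of treatment and organoid type, adjusted over all genes tested) missed the threshold. In polysome-associated mRNA, Eif4a1 went from -0.67 to -0.01 in N and from 0.06 to 0.26 in KP, a difference of 0.37 (adjusted p = 0.999). The Eif4a2+Rfc4 entry went from -0.49 to -0.10 in N and from 0.12 to 0.29 in KP, a difference of 0.43 (adjusted p = 1.00). In the polysome-associated over total ratio, Eif4g3 went from -0.42 to -0.15 in N and from 0.17 to 0.70 in KP, a difference of 0.77 (adjusted p = 0.418). The Bbip1+Pdcd4+Shoc2 entry went from -0.27 to -0.02 in N and from 0.01 to 0.92 in KP, a difference of 0.49 (adjusted p = 0.506). The N pair farthest from 0 was replicate 3, whose lysates stand apart, for Eif4a1, Eif4g3 and the Bbip1+Pdcd4+Shoc2 entry. The agreement of all 3 N pairs therefore rests on the labels of replicate 3, which were not tested, and without that replicate it rests on 2 pairs. Groups of 3 were too small to test single libraries as outlying.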

How the results depend on the processing

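The 31 member values were recomputed under 11 alternatives with every library and 18 that left libraries out, 794 values in all, of which 610 kept their direction and their side of the threshold, 114 were no longer called, 32 were newly called and 38 changed sign. All 38 sign changes were in KP against N vehicle and in values that were not called: Eif4g1 on polysomes went to 0.015 (replicate block) and 0.13 (lane as a term within each organoid type), Eif4g2 there to 0.024 (lane term), and the polysome-against-total difference of Eif4b to 0.027 (RLE), 0.0064 (no filter), 0.038 (filterByExpr) and 0.027 (DESeq2), the rest when libraries were left out. The cause of none was tested.

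Of the 8 members, the threshold of 0.05 called 0 for KP against N in polysome-associated and in total mRNA, with vehicle and with CR-31, and 0 between fractions in N vehicle, N CR-31 and KP vehicle. filterByExpr called 2 for KP against N vehicle on polysomes, and 1 between fractions in N vehicle and 0 in KP vehicle. Without a filter, 0 were called for KP against N vehicle and 1 with CR-31 in total mRNA, 1 between fractions in N vehicle and 0 in KP vehicle. RLE scaling called 0 between fractions in KP vehicle. DESeq2 called 1 for the polysome-against-total difference of KP and N in vehicle and 1 between fractions in KP CR-31. The lane term called 2 for KP against N with CR-31 on polysomes and 2 with vehicle in total mRNA (31.2% of all genes). For the other counts of this paragraph up to here, the share of all genes called is not given, so they cannot be set against a background. The replicate block called 3 (vehicle) and 4 (CR-31) for KP against N on polysomes, 2 with vehicle in total mRNA and 2 for CR-31 in KP on polysomes. For the polysome-against-total difference, the regression called 2 with vehicle, and with the replicate block 4 with vehicle, 2 with CR-31 and 2 for CR-31 in KP. The block changed no other count by over 1.5 times.

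With libraries left out, the number called for KP against N ranged from 0 to 5 (polysomes) and 0 to 3 (total mRNA and the polysome-against-total difference) in vehicle, and from 0 to 3 on polysomes and in total mRNA with CR-31. Between fractions it ranged from 0 to 4 in N vehicle, 0 to 3 in N CR-31 and KP vehicle and 0 to 4 in KP CR-31, and for the CR-31 effect in KP minus N in that ratio from 0 to 1 (without N CR-31 replicate 2). Differences between KP and N vehicle that changed sign were, on polysomes, Eif4a1 (-0.29 to 0.084), Eif4e (-0.047 to 0.44), Eif4g1 (-0.24 to 0.32) and Eif4g2 (-0.46 to 0.11), in total mRNA Eif4a1 (-0.054 to 0.18), Eif4g2 (-0.30 to 0.078) and Eif4g3 (-0.14 to 0.61), the polysome-against-total difference of Eif4b (-0.49 to 0.30), and on polysomes the log2 ratios Eif4g2 to Eif4g1 (-0.26 to 0.10) and Bbip1+Pdcd4+Shoc2 to Eif4a1 (-0.26 to 0.20). Ratios from counts divided by length were not run. Fits that leave 1 group with 2 samples pool the spread over groups.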
